A study of Mus musculus with 6 samples.

Results

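Polycomb group proteins form complexes that keep genes silent, and 10 genes for their subunits were followed here in C3H10T1/2 cells. The genes were chosen by name as parts of Polycomb repressive complex 1 or 2 (PRC1, PRC2), whose action on chromatin is opposed by the MLL methyltransferases. They are Ezh1, Ezh2, Eed, Suz12 and Jarid2 of PRC2, and Bmi1, Rnf2, Cbx2, Cbx7 and Cbx8 of PRC1. All 10 were matched by symbol to 1 Ensembl gene each among the 55401 genes of the count table, and all 10 were among the 16742 genes that passed the filter on low counts.

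PRC2 places methyl groups on lysine residues of histone H3 (the mark H3K27me3), and PRC1 reads that mark, compacts chromatin and adds ubiquitin to histone H2A. MLL1, the product of Kmt2a, methylates another lysine of histone H3 (H3K4) and helps to keep genes active at many of the loci that Polycomb proteins repress. Ezh2 is known as the PRC2 enzyme of dividing cells and Ezh1 as that of resting and differentiated cells, and Ezh2 is known to restrain bone formation by mesenchymal progenitors.

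C3H10T1/2 cells are mouse mesenchymal progenitors kept in culture, from which bone or fat cells can be formed. Total RNA was sequenced from cells expressing a control short hairpin RNA (shControl, genotype WT), a hairpin against Nfib (shNFIB, NFIB knockdown) or a hairpin against Kmt2a (shMLL1, MLL1 knockdown). Each line was taken untreated at day 0 and at day 7 of culture in osteogenic medium, with dexamethasone at 0.1 µM, β-glycerophosphate at 20 mM and ascorbic acid 2-phosphate at 100 µg/mL. Each of the 6 conditions had a single library (n = 1), so a difference between a pair of libraries has no replicate check. A knockdown lowers a transcript without removing it, and each target was lowered by 1 hairpin line here, so an effect of the hairpin itself cannot be told apart from an effect of the target.

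The libraries of day 0 held 32662704 (shControl), 34774066 (shNFIB) and 30838517 (shMLL1) counts in total, and those of day 7 held 29086652, 30406559 and 21608680. Levels are given in CPM, counts relative to the library total after TMM scaling (trimmed mean of M-values). Intervals are 95% Clopper-Pearson intervals of the counts and cover counting error only, since sequenced reads are not independent molecules. A library with 3 or fewer counts of a gene was taken as at the floor, which ranged from 0.0915 CPM (shNFIB, day 0) to 0.123 CPM (shMLL1, day 7).

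Knockdown was checked on the targets of the hairpins. Nfib was at 116 CPM in shControl, 34.0 CPM in shNFIB and 68.9 CPM in shMLL1 at day 0, and at 83.3, 8.04 and 72.9 CPM at day 7. Kmt2a was at 74.7 CPM in shControl, 83.3 CPM in shNFIB and 32.5 CPM in shMLL1 at day 0, and at 66.2, 92.8 and 34.9 CPM at day 7. At either day, the lowest level of a target was that of the line with its hairpin. Over both days the log2 difference from shControl was -2.44 for Nfib in shNFIB (standard error 0.49, adjusted p = 0.115) and -1.06 for Kmt2a in shMLL1 (0.23, adjusted p = 0.154), and neither passed 0.05 in the quasi-likelihood test of edgeR (Benjamini-Hochberg adjustment). DESeq2 called both, with adjusted p of 0.000131 and 0.00613, and over the 6 alternatives the adjusted p ran from 6.26e-05 to 0.154 for Nfib and from 0.00613 to 0.190 for Kmt2a.

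The mesenchymal label was checked against markers. Of 12 mesenchymal marker genes 11 passed the filter on low counts. Nt5e did not, with 1 count (shNFIB, day 0) to 6 counts (shMLL1, day 7) in a library, and was thus close to the floor throughout. None of the 12 was at the floor in every library, and their summed level ranged from 8956 CPM (shControl, day 7) to 25972 CPM (shNFIB, day 0). Fn1 was highest in CPM in shControl at day 0 and in shNFIB at both days, Col1a1 in shControl at day 7 and Col1a2 in shMLL1 at both days. Of 8 blood, endothelial and epithelial markers, Ptprc, Adgre1, Cdh5, Kdr and Epcam were at or under 3 counts in every library, and the summed level of all 8 lay between 4.24 and 11.1 CPM, with Cdh1 highest in CPM at day 0 and Cd68 at day 7 in each line. These were the 2 of the 8 that were tested, and over the 3 lines Cd68 rose by 1.78 on the log2 scale (adjusted p = 0.00592) and Cdh1 fell by 3.77 (adjusted p = 0.00142, edgeR with Benjamini-Hochberg adjustment). Their part in the day differences of the subunit genes was not tested. Of 11 osteoblast markers, Spp1 was highest in CPM in every library and Ibsp was at or under 3 counts in every library. Their summed level was 268 CPM at day 0 and 1570 CPM at day 7 in shControl, 249 and 278 CPM in shNFIB, and 286 and 370 CPM in shMLL1. Spp1 alone was at 217 and 1378 CPM in shControl, 209 and 223 CPM in shNFIB, and 236 and 304 CPM in shMLL1. The sum thus mostly gives the level of Spp1 and not that of the other markers. In the edgeR test of the day, 16.9% of all genes tested were called higher and 16.7% lower. Among them were 11 mesenchymal markers, with 1 called higher and 4 lower. The number lower was 1 without the shControl line, 2 with no replicate block, and 7 by DESeq2 and with no filter on low counts. Of 8 osteoblast markers tested, 2 were called higher (Alpl and Ifitm5), neither of them without the shControl line. The number was 1 with no replicate block, 3 under library size alone, 4 by DESeq2 and 5 with no filter. Alpl had 7, 8 and 0 counts at day 0 in shControl, shNFIB and shMLL1, and 111, 215 and 2 at day 7. It passed the filter on low counts only through day 7, so a call of higher was the only one open to it.

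The catalytic subunits of PRC2 were examined next, since Ezh1 and Ezh2 are alternative methyltransferases of the complex. Ezh1 (ENSMUSG00000006920, chr11:101191115-101226463 on GRCm38) was at 57.7 CPM in shControl, 70.6 CPM in shNFIB and 37.0 CPM in shMLL1 at day 0, and at 204, 172 and 286 CPM at day 7. All 3 libraries of day 7 lay above all 3 of day 0, and shMLL1 held both the lowest and the highest value. Ezh2 (ENSMUSG00000029687, chr6:47530139-47595341) was at 53.9 CPM in shControl, 78.8 CPM in shNFIB and 63.8 CPM in shMLL1 at day 0, and at 22.0, 18.9 and 21.8 CPM at day 7. The days did not overlap here either, with day 7 below day 0 in each line and the 3 lines close together at day 7.

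Ezh1 rose and Ezh2 fell over the 3 lines. The fitted log2 difference of day 7 from day 0 was 2.01 for Ezh1 (standard error 0.33, adjusted p = 0.00548, higher in 3 of 3 lines) and -1.63 for Ezh2 (0.22, adjusted p = 0.00243, lower in 3 of 3 lines) in the quasi-likelihood test of edgeR (Benjamini-Hochberg adjustment). Within lines, the log2 ratio of Ezh1 was 1.82 in shControl (interval 1.75 to 1.90), 1.28 in shNFIB (1.21 to 1.35) and 2.95 in shMLL1 (2.86 to 3.05). That of Ezh2 was -1.29 in shControl (-1.43 to -1.17), -2.06 in shNFIB (-2.19 to -1.93) and -1.55 in shMLL1 (-1.69 to -1.41). Whether these ratios differ between lines beyond the spread of cultures could not be tested with 1 library per condition. In bulk samples a change in the cells that make up a culture and a change of RNA per cell cannot be told apart.

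Scaled to exon length (all annotated exons of a gene joined), Ezh1 was below Ezh2 at day 0 in each line, though close to it in shControl, and above it at day 7. In CPM without that scaling Ezh1 was already above Ezh2 in shControl at day 0, so the order in that library rests on the exon lengths. The level of Ezh1 over that of Ezh2, each in CPM per kb of exon, was 0.960 in shControl, 0.803 in shNFIB and 0.520 in shMLL1 at day 0, and 8.34, 8.14 and 11.8 at day 7. Ezh1 thus made up 42.6% ± 7.58 (SD, n = 3 lines) of the summed level of both genes at day 0 and 90.2% ± 1.74 at day 7. The summed level itself was 15.8 CPM per kb in shControl, 21.3 in shNFIB and 14.5 in shMLL1 at day 0, and 30.8, 25.9 and 41.8 CPM per kb at day 7. It was thus higher at day 7 in each line, while the share of Ezh2 was lower.

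**Figure D1:**
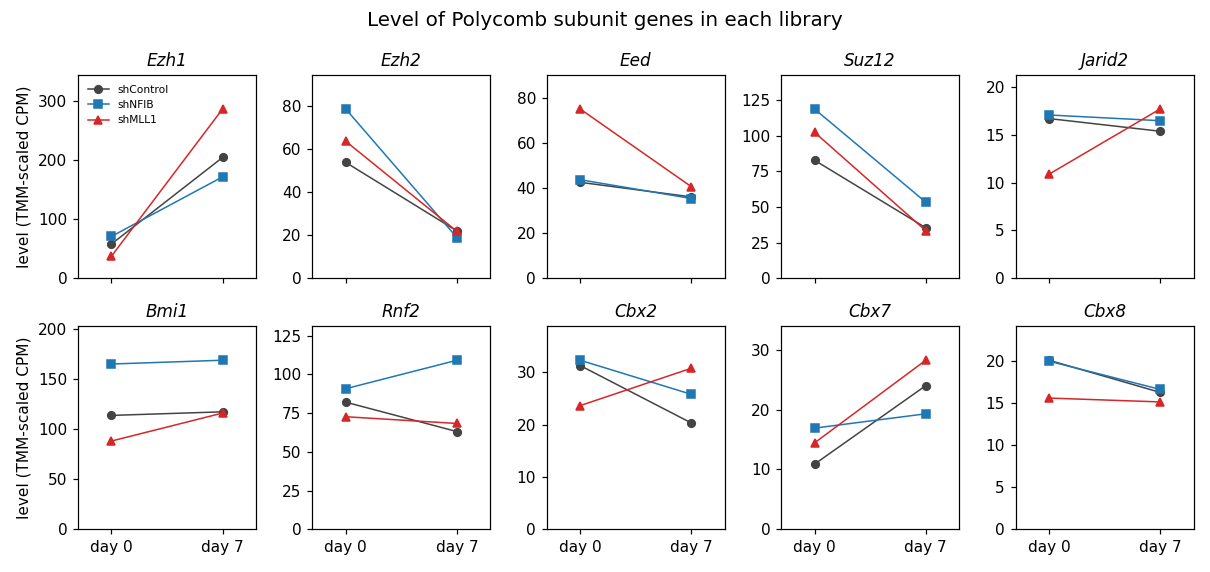
Level of each gene in TMM-scaled CPM (vertical axis, from 0) at day 0 and day 7 (horizontal axis) for the 10 Polycomb subunit genes, with 1 point per library and a line joining the libraries of the same cell line (grey circles shControl, blue squares shNFIB, red triangles shMLL1). Ezh1 is higher and Ezh2 and Suz12 are lower at day 7 in each line, and Bmi1 is highest in shNFIB at both days.

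The non-catalytic subunits Suz12 and Eed hold the enzyme in its active form. Suz12 (ENSMUSG00000017548, chr11:79993106-80034123) was at 82.8 CPM in shControl, 119 CPM in shNFIB and 102 CPM in shMLL1 at day 0, and at 35.4, 53.4 and 33.4 CPM at day 7. All 3 libraries of day 7 lay below those of day 0, and shNFIB was highest at both days. Suz12 fell by 1.33 on the log2 scale (standard error 0.19, adjusted p = 0.00336, lower in 3 of 3 lines, edgeR with Benjamini-Hochberg adjustment), and its log2 ratio was -1.23 (shControl), -1.15 (shNFIB) and -1.62 (shMLL1).

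Eed, which binds the methyl mark that PRC2 makes, gave another picture. Eed (ENSMUSG00000030619, chr7:89954654-89980983) was at 42.6 CPM in shControl, 43.8 CPM in shNFIB and 75.2 CPM in shMLL1 at day 0, and at 36.1, 35.4 and 40.7 CPM at day 7. The days did not overlap, but the gap between the lowest library of day 0 and the highest of day 7 was small, and shMLL1 at day 0 stood above the rest. The fitted log2 difference of -0.48 (standard error 0.21) did not pass the edgeR test (Benjamini-Hochberg adjusted p = 0.111). The log2 ratio of day 7 to day 0 was -0.24 in shControl, -0.31 in shNFIB and -0.89 in shMLL1.

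Jarid2, a cofactor that helps PRC2 to find its targets, had the lowest mean level of the 10 genes per kb of exon at both days. Jarid2 (ENSMUSG00000038518, chr13:44729474-44921643) was at 16.7 CPM in shControl, 17.1 CPM in shNFIB and 10.9 CPM in shMLL1 at day 0, and at 15.4, 16.5 and 17.7 CPM at day 7. The days overlapped, and 5 of the 6 libraries lay between 15.4 and 17.7 CPM, with shMLL1 at day 0 below them. The fitted day difference was 0.17 (standard error 0.24, adjusted p = 0.604 in edgeR with Benjamini-Hochberg adjustment), and -0.07 without the shMLL1 line.

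In PRC1, Bmi1 and Rnf2 form the core that carries the ubiquitin ligase activity. Bmi1 (ENSMUSG00000026739, chr2:18677018-18686629) was at 114 CPM in shControl, 165 CPM in shNFIB and 88.1 CPM in shMLL1 at day 0, and at 117, 169 and 116 CPM at day 7. The days overlapped and the lines stood apart more than the days, with both shNFIB libraries above the other 4. Rnf2 (ENSMUSG00000026484, chr1:151458004-151500955) was at 82.0 CPM in shControl, 90.7 CPM in shNFIB and 72.6 CPM in shMLL1 at day 0, and at 63.1, 109 and 68.3 CPM at day 7. Here too the days overlapped and the shNFIB libraries were the highest at each day. The fitted day difference was 0.16 for Bmi1 (standard error 0.19, adjusted p = 0.550) and -0.07 for Rnf2 (0.20, adjusted p = 0.815), and neither passed the edgeR test with Benjamini-Hochberg adjustment. Without the shControl line that of Rnf2 was 0.10.

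Cbx2, Cbx7 and Cbx8 are alternative chromodomain subunits that bind methylated histone H3. Cbx7 (ENSMUSG00000053411, chr15:79915807-79971119) was at 10.9 CPM in shControl, 16.9 CPM in shNFIB and 14.4 CPM in shMLL1 at day 0, and at 24.0, 19.3 and 28.2 CPM at day 7. All libraries of day 7 lay above those of day 0, with the smallest step in shNFIB. The log2 ratio was 1.14 in shControl (0.95 to 1.33), 0.19 in shNFIB (0.02 to 0.36) and 0.97 in shMLL1 (0.79 to 1.15). The fitted log2 difference of 0.77 (standard error 0.25) just missed the threshold in edgeR's test (Benjamini-Hochberg adjusted p = 0.0503). Without the shNFIB line the difference was 1.08 with an adjusted p of 0.0178, and over the 9 alternatives tried the adjusted p ran from 0.0178 to 0.281, with 5 of them under 0.05.

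The other chromodomain subunits did not pass the test. Cbx2 (ENSMUSG00000025577, chr11:119022962-119031270) was at 31.3 CPM in shControl, 32.3 CPM in shNFIB and 23.6 CPM in shMLL1 at day 0, and at 20.3, 25.8 and 30.8 CPM at day 7. The days overlapped, since the value was lower at day 7 in shControl and shNFIB and higher in shMLL1. Cbx8 (ENSMUSG00000025578, chr11:119036305-119040969), which lies close to Cbx2 on chromosome 11, was at 20.1 CPM in shControl, 20.0 CPM in shNFIB and 15.6 CPM in shMLL1 at day 0, and at 16.3, 16.7 and 15.2 CPM at day 7. The days overlapped, and both shMLL1 libraries were the lowest of their day. The fitted day difference was -0.19 for Cbx2 (standard error 0.24, adjusted p = 0.564) and -0.20 for Cbx8 (0.20, adjusted p = 0.451) in edgeR with Benjamini-Hochberg adjustment. Without the shControl line that of Cbx2 was 0.04.

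Per kb of exon, the 3 chromodomain genes summed to 14.5 CPM per kb in shControl, 15.6 in shNFIB and 12.0 in shMLL1 at day 0, and to 12.9, 13.6 and 15.7 at day 7. Cbx7 made up 11.6% of that sum in shControl, 16.7% in shNFIB and 18.5% in shMLL1 at day 0, and 28.7%, 21.9% and 27.7% at day 7. Its share was higher at day 7 in each line, and the days did not overlap, while the sum overlapped between days. Cbx7 shares 100 of its 6487 exonic bases with Apobec3 on the other strand. The whole of Apobec3 had up to 450% of the count of Cbx7. How many of its reads lie in the shared bases, and their part in the level, day difference and share of Cbx7, was not tested.

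**Figure D2:**
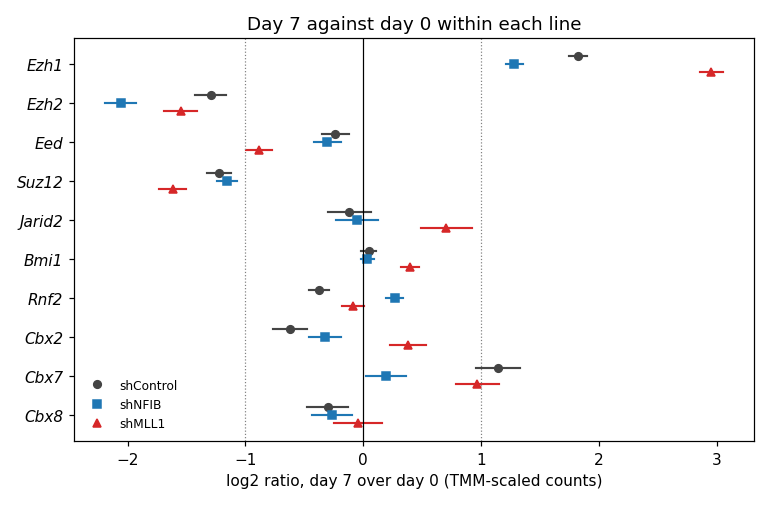
Log2 ratio of day 7 over day 0 from TMM-scaled counts (horizontal axis) for each of the 10 genes (vertical axis) in shControl (grey circles), shNFIB (blue squares) and shMLL1 (red triangles), with 1 library a side. Bars are 95% Clopper-Pearson intervals, which cover counting error only, and dotted lines mark a 2-fold change; Ezh1 lies past it upwards and Ezh2 and Suz12 downwards in each line.

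Across the 10 genes, 1 was called higher (Ezh1) and 2 lower (Ezh2 and Suz12) at day 7 in the edgeR test, where 16.9% of all genes tested were called higher and 16.7% lower. These counts are near the shares of all genes. The median log2 day difference was -0.13 over the 10 genes and -0.005 over all genes tested. The libraries of day 7 lay above those of day 0 for 2 of the 10 genes (Ezh1 and Cbx7), which held for 23.4% of all genes, and below them for 3 of the 10 (Ezh2, Eed and Suz12), which held for 21.8%.

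Within single lines, a 2-fold difference was used with no test. Between the shControl libraries, 2 of the 10 genes were past it upwards (Ezh1 and Cbx7), against 21.8% of all genes, and 2 downwards (Ezh2 and Suz12), against 14.6%. Between the shNFIB libraries 1 gene was past it upwards (Ezh1, background 16.8%) and 2 downwards (Ezh2 and Suz12, background 12.5%). The shMLL1 libraries gave 1 gene upwards (Ezh1, background 23.9%) and 2 downwards (Ezh2 and Suz12, background 20.0%).

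The order of the levels per kb of exon was compared over the 3 lines of each day. At day 0 the mean was highest for Bmi1 at 30.8 ± 9.85 CPM per kb (SD, n = 3), followed by Suz12 at 20.5 ± 3.64, Rnf2 at 19.8 ± 2.19, Eed at 14.1 ± 4.83, Ezh2 at 9.81 ± 1.88, Ezh1 at 7.40 ± 2.28 and Cbx2 at 6.83 ± 1.11. The ranges of each of these genes and the next in the order overlapped. Cbx8 at 5.06 ± 0.699 lay below Cbx2 with no overlap, though its range overlapped that of Ezh1. Cbx7 at 2.17 ± 0.466 lay below all of these, and its range overlapped that of Jarid2 at 1.53 ± 0.358 CPM per kb.

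At day 7 Ezh1 stood next to Bmi1 and Ezh2 next to last. Bmi1 was at 33.7 ± 7.57 CPM per kb (SD, n = 3), Ezh1 at 29.7 ± 7.95 and Rnf2 at 19.4 ± 6.10. The range of Ezh1 overlapped those of Bmi1 and Rnf2, which did not overlap each other. A gap separated these from Eed at 9.77 ± 0.747, Suz12 at 8.24 ± 2.23 and Cbx2 at 6.02 ± 1.23, which overlapped in that order. After another gap came Cbx8 at 4.36 ± 0.212, Cbx7 at 3.67 ± 0.689 and Ezh2 at 3.13 ± 0.258, again overlapping in order, and Jarid2 at 1.70 ± 0.120 CPM per kb lay below them all.

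The knockdown lines were compared with shControl to ask whether the subunit genes depend on NFIB or MLL1. Both comparisons share the shControl libraries. Over both days, 0 of the 10 genes were called in shNFIB by edgeR's quasi-likelihood test, where 0.418% of all genes were called, and 0 of the 10 were called by DESeq2, which called 3.82% of the genes with an adjusted p. At an unadjusted p under 0.05 there was 1 of the 10 (Suz12), against 12.4% of all genes. Suz12 was 0.56 higher on the log2 scale (standard error 0.23, adjusted p = 0.395, higher at 2 of 2 days), followed by Bmi1 at 0.53 (0.24, adjusted p = 0.424) and Rnf2 at 0.47 (0.25, adjusted p = 0.496), with Benjamini-Hochberg adjustment in edgeR.

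In shMLL1, 0 of the 10 genes were called by edgeR, where 0.0299% of all genes were called, 0 were called by DESeq2, which called 2.46% of such genes, and 0 had an unadjusted p under 0.05, against 9.2% of all genes. The largest fitted difference was that of Eed, at 0.51 (standard error 0.25, adjusted p = 0.611 in edgeR with Benjamini-Hochberg adjustment). The median over the 10 genes was 0.17 in shNFIB and 0.05 in shMLL1, and over all genes tested it was 0.004 and 0.02. With 2 libraries a side, a test that misses the threshold does not show that the levels were equal.

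At single days no gene of the 10 was past 2-fold in a knockdown line against shControl. The share of all genes past 2-fold in either direction was 12.8% in shNFIB at day 0, 19.8% in shNFIB at day 7, 18.6% in shMLL1 at day 0 and 13.2% in shMLL1 at day 7. In shNFIB the log2 ratios to shControl ran from -0.01 for Cbx8 to 0.63 for Cbx7 at day 0 (0.44 to 0.83), and from -0.31 for Cbx7 to 0.79 for Rnf2 at day 7 (0.71 to 0.87). Bmi1 was alike at both days, at 0.54 (0.48 to 0.60) and 0.52 (0.46 to 0.59). In shMLL1 they ran from -0.64 for Ezh1 to 0.82 for Eed at day 0 (0.72 to 0.92), and from -0.10 for Cbx8 to 0.60 for Cbx2 at day 7 (0.44 to 0.75).

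Other subunits of the complexes were taken from lists. Of 7 other PRC2 subunits, 1 was called higher and 4 lower at day 7, with a median log2 difference of -0.60. Of all genes tested, 16.9% were called higher and 16.7% lower. Phf19, a cofactor of PRC2, was at 21.6 CPM in shControl, 51.9 CPM in shNFIB and 25.7 CPM in shMLL1 at day 0, and at 4.58, 4.10 and 5.18 CPM at day 7. It fell by 2.73 on the log2 scale (adjusted p = 0.00176), and Epop by 1.68 (adjusted p = 0.0101), Rbbp7 by 0.88 (adjusted p = 0.0175) and Aebp2 by 0.60 (adjusted p = 0.0369) in edgeR with Benjamini-Hochberg adjustment. Phf1, another cofactor of PRC2, was at 26.0 CPM in shControl, 23.3 CPM in shNFIB and 15.6 CPM in shMLL1 at day 0, and at 60.7, 35.3 and 30.9 CPM at day 7. It rose by 0.94 (adjusted p = 0.0143 in edgeR with Benjamini-Hochberg adjustment), while Phf19 fell. Rbbp4 (-0.10, adjusted p = 0.756) and the cofactor Mtf2 (0.16, adjusted p = 0.531) did not pass in the same edgeR test. Phf19 passed in all 9 alternatives. Without the shControl line the others did not pass in edgeR (Epop at -1.74, Rbbp7 at -0.81, Aebp2 at -0.58 and Phf1 at 0.80), so 0 were called higher and 1 lower, and without the shNFIB line Rbbp7 (-0.90) and Aebp2 (-0.55) did not. Aebp2 missed the threshold in 6 of its 9 alternatives, and Phf1 also with no replicate block (0.99).

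Of 18 other PRC1 subunits 17 were tested, and 2 were called at day 7, both lower, with a median of -0.07 over the list. For this list and the next, the shares of all genes tested were 16.9% called higher and 16.7% lower. Pcgf5, a relative of Bmi1, fell by 1.54 (adjusted p = 0.00710), and L3mbtl2 by 1.32 (adjusted p = 0.00428, edgeR with Benjamini-Hochberg adjustment). Auts2 was at or under 3 counts in every library. Of 7 enzymes that remove Polycomb marks, 2 were called at day 7, both higher, with a median of 0.19 over the list. These were Kdm6b, a demethylase of H3K27, at 0.62 (adjusted p = 0.0357), and Mysm1, which takes ubiquitin off histone H2A, at 1.05 (adjusted p = 0.00758, edgeR with Benjamini-Hochberg adjustment). Kdm6b did not pass without shControl (0.72), without shNFIB (0.62) or without shMLL1 (0.59), while Pcgf5, L3mbtl2 and Mysm1 passed in every alternative. In each of these 3 lists, 0 genes were called in either knockdown line by edgeR and 0 by DESeq2. At an unadjusted p under 0.05 in edgeR there were 1 of the PRC2 list, 2 of the PRC1 list and 0 of the enzymes in shNFIB, and 1, 1 and 0 in shMLL1. Of all genes, 12.4% had such a p in shNFIB and 9.2% in shMLL1. With no filter on low counts edgeR called Pcgf5 higher in shMLL1, at 1.17 (Benjamini-Hochberg adjusted p = 0.0410, with a range of 0.0410 to 0.294 over its 6 alternatives).

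Known Polycomb target genes mostly had few or no counts. Of 20, 11 were at or under 3 counts in every library (Cdkn2a, Cdkn2b, Hoxa11, Hoxa13, Hoxd10, Pax7, Foxa2, Sox1, Neurog2, Olig2 and Nkx2-2), and 6 passed the filter. Many genes of the whole table were as low. Of its 55401 genes, 29043 had at least 1 count over the 6 libraries and 16742 passed the filter. The share of all genes at or under 3 counts was not taken, and whether Polycomb proteins repress the listed genes here was not tested. At day 7, 2 of the 6 were called higher and 2 lower, where 16.9% of all genes tested were called higher and 16.7% lower. Hoxa9 rose by 2.02 (adjusted p = 0.0133) and Hoxa10 by 0.83 (adjusted p = 0.0279), while Gata4 fell by 1.10 (adjusted p = 0.0131) and Lhx2 by 1.86 (adjusted p = 0.0217) in edgeR with Benjamini-Hochberg adjustment. Without the shControl line none of these 4 passed in edgeR (Hoxa9 at 1.85, Hoxa10 at 0.85, Gata4 at -1.06 and Lhx2 at -1.88), Lhx2 (-1.32) did not pass without shNFIB, nor Hoxa10 without shMLL1 (0.77) or with no replicate block (0.87). DESeq2 with all libraries called 2 higher and 2 lower. Hoxa9 was low in every library, from 0.407 CPM (shControl, day 0) to 3.66 CPM (shMLL1, day 7). Pax3 was at 6.98 CPM in shControl, 0.336 CPM in shNFIB and 4.08 CPM in shMLL1 at day 0, and at 3.08, 0.0334 and 3.86 CPM at day 7. The library of shNFIB at day 7 was at the floor for Pax3, and Pax3 was called lower in shNFIB in edgeR with a Benjamini-Hochberg adjusted p of 0.0498, which ran from 3.01e-08 to 0.0863 over the 6 alternatives and missed 0.05 in 3 of them. In shMLL1, 0 genes of the list were called by edgeR, 0 by DESeq2 and 0 had an unadjusted p under 0.05.

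Proliferation genes moved with the day as well. For this list and the adipocyte markers below, the shares of all genes tested were 16.9% called higher and 16.7% lower. All 23 genes of the list were called lower at day 7 in edgeR, also with each line left out, with a median log2 difference of -3.08, and none was at the floor in every library. Their summed level was 3311 CPM at day 0 and 630 CPM at day 7 in shControl, 4438 and 561 CPM in shNFIB, and 3549 and 477 CPM in shMLL1, with Top2a highest in CPM at day 0 and Pcna at day 7 in each line. The level at day 0 was thus 5.26 times that at day 7 in shControl, 7.91 times in shNFIB and 7.44 times in shMLL1. Of 10 adipocyte markers 7 were tested and 5 were called higher at day 7 (1 without shControl, 3 without shNFIB, 3 with 1 called lower without shMLL1, and 1 with no replicate block), with a summed level of 51.0 and 204 CPM in shControl, 61.2 and 92.8 CPM in shNFIB, and 19.1 and 32.2 CPM in shMLL1. The 5 were Plin1, Cfd, Cidec, Lpl and Pparg. Plin1, Cfd and Cidec had 0 counts in each library of day 0. Lpl had 6, 7 and 0 counts at day 0 in shControl, shNFIB and shMLL1, and 1084, 22 and 4 at day 7. All but Pparg passed the filter on low counts only through day 7, so a call of higher was the only one open to them. Cfd was highest in CPM in shControl at day 7 and Pparg in the other 5 libraries, and Adipoq was at or under 3 counts in every library. The part of proliferation and of cell type in the day differences of Ezh1, Ezh2 and Suz12 was not tested.

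The genes most like the called subunits were found by the Pearson correlation of log2 CPM over the 6 libraries, among 12633 other protein-coding genes that passed the filter and had at least 1 count in every library. Ezh1 was followed most closely by Nemf (r = 0.999), Usp19 (r = 0.999) and Zmym5 (r = 0.999), and Ezh2 by Kif23 (r = 0.997), Haus6 (r = 0.997) and Nsd2 (r = 0.997). Suz12 was followed by Tpm3 (r = 0.999), Tubb4b (r = 0.999) and Hspa14 (r = 0.999). The 6 libraries share lines and days, and the values are a description with no p.

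The promoters of Ezh2 and Suz12 are shown in part because these genes fell together. RefSeq windows on GRCm38.p6, from 250 bases before to 50 after the RefSeq start, were held for 9 of the 10 genes, all but Cbx2, with 2 windows for Jarid2. Against the gene coordinates printed above, the RefSeq start lies 311 bases inside the gene for Ezh2, 1300 and 1797 for Jarid2 and 38473 for Cbx7, and is the same base for Ezh1, Suz12 and Bmi1. They were searched on both strands for the E2F motif (TTTGGCGC, TTTCCCGC, TTTGCCGC or TTTCGCGC), the CCAAT box, the cell cycle homology region (TTTGAA) and the GC box (GGGCGG). Of 32851 windows of all genes, 2.26% held the E2F motif, 37.4% the CCAAT box, 17.9% the cell cycle homology region and 35.7% the GC box. The E2F motif was in 2 of the 10 windows (Ezh2 and Suz12), the CCAAT box in 7, the GC box in 7 and the cell cycle homology region in 3. The window of Ezh1 held none of the 4 motifs, which says only that these letters are not in it.

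Ezh2 held 3 CCAAT boxes, and its E2F motif began at base 4 after the RefSeq start. Suz12 held 1 CCAAT box at base -61 and its E2F motif at base -219. No match overlapped one of another motif in these windows. The stretches below run 5′ to 3′ on the strand of the gene, with E2F motifs and CCAAT boxes of either strand in capitals, and a match is no evidence that a factor binds.
Ezh2, before the RefSeq start (chr6:47595059-47595183, minus strand): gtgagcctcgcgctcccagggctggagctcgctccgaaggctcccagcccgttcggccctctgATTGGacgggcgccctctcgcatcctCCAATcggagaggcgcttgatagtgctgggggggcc
Ezh2, across the RefSeq start (chr6:47595015-47595043, minus strand): cgATTGGgttgctgcgTTTGGCGCtcggt
Suz12, before the RefSeq start (chr11:79992856-79993105, plus strand): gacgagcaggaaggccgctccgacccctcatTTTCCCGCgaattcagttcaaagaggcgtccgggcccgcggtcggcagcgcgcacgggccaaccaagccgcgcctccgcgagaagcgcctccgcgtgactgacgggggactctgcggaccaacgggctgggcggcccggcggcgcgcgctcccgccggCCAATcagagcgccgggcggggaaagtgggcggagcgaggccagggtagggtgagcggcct

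Genes on the opposite strand overlap exons of several subunit genes, and their reads cannot be told apart where counting ignores strand. The shared exonic length was 174 bases for Ezh2 (with Gm26625), 261 for Eed (E230029C05Rik), 178 for Suz12 (Gm26563), 158 for Rnf2 (Trmt1l) and 100 for Cbx7 (Apobec3), of exon lengths of 6678, 3828, 4945, 4127 and 6487 bases. E230029C05Rik had at most 14 counts in a library, while Trmt1l reached 1829 counts, at most 61.5% of the count of Rnf2 in the same library, and Apobec3 reached 1587 counts and up to 450% of the count of Cbx7, so the levels of Rnf2 and Cbx7 are less certain than those of Ezh1, Bmi1, Cbx2 and Cbx8, which overlap no annotated gene. These counts are of the whole overlapping gene, and how many reads lie in the shared bases was not tested. Counts of Gm26625 and Gm26563 were not used here, so the part of their reads in the levels of Ezh2 and Suz12 was not tested.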

How the data were processed

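Total RNA of 6 libraries was sequenced. According to the paper's methods and the submitters' processing notes, the authors used Trimmomatic 0.39 for trimming, HISAT2 2.2.1 for alignment to mm10 (GRCm38), SAMtools 1.12 to select reads by mapping quality and, after removal of PCR duplicates, HTSeq 0.11.1 to count reads of each Ensembl gene. The deposited values are raw counts without normalization. The annotation release and the strand setting of the counting were not given in the sources used here.

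Gene positions and exon lengths were taken from GENCODE M21 on GRCm38, which held 55141 of the 55401 genes. The exon length was that of all annotated exons of a gene joined, not of the transcripts expressed here. Levels, shares and orders per kb of exon depend on this choice, and their SD over lines does not cover it. Genes were kept by filterByExpr, scaled by TMM and fitted with edgeR 4.0.16 under R 4.3.3 by the quasi-likelihood method, with line and day as terms (2 residual degrees of freedom, biological coefficient of variation 0.281), and p-values were adjusted over all 16742 genes. The line was a block, since its libraries of both days are the same cell line. Deviations from the day means correlated across genes between these libraries (shControl 0.438, shNFIB 0.412, shMLL1 0.257). Lines stand in for replicates in the day test, and days in the line tests, so p-values rest on the spread between these libraries and not between cultures of a line. That spread is taken in part from other genes, since the quasi-likelihood method adds prior degrees of freedom (median 5.30) to the 2 residual ones. A p-value of a gene thus does not rest on the spread of that gene alone. Pairs of libraries were compared by log2 ratios of scaled counts with no p-value, since the dispersion of a test without replicates is not named in the paper's methods. A count under 3 was set to 3 in such ratios. A call meant an adjusted p under 0.05. Promoters, motifs and figures were handled in Python 3.11.15 with matplotlib 3.10.9.

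The 10 genes, the lists and the tests were chosen with earlier results of these data known. By rule, the genes named were the 10 subunits, the hairpin targets and, from each related list, those that passed a test. A related list gave at most the 6 genes with the largest day difference. From marker lists the rule took the gene highest in CPM and those at or under 3 counts everywhere. For each called subunit it took the 3 genes most correlated with it. Outside this rule, genes that overlap a subunit gene, Rbbp4, Mtf2, Nt5e, Alpl, Ifitm5, Plin1, Cidec and Lpl were named after their values were seen. The steps were tested on simulated counts with known changes. Alternatives were DESeq2 size factors, library size alone, the test of DESeq2 1.42.0, all genes with at least 1 count, protein-coding genes alone, each line left out, no block, only the 4 libraries compared, and a 1.5-fold criterion. ChIP-seq data were not used here.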

Additional observations from a re-analysis of the deposited data

Results flagged for a closer look

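In 10 cases the effect of the day or of a knockdown on a subunit gene went one way in a condition and the opposite way in another, with the counting intervals of the log2 ratios on opposite sides of 0. Each rests on 1 library per condition, and the difference was not tested in any of them. Of all 16742 genes tested, such opposite intervals were found between the day ratios of shControl and shNFIB in 5.88% (here 1 of 10 genes), of shControl and shMLL1 in 8.77% (1 of 10) and of shNFIB and shMLL1 in 11.2% (1 of 10). They were found between the days in 10.4% for shNFIB against shControl (3 of 10) and in 18.0% for shMLL1 against shControl (4 of 10). The 10 cases are not independent, and the difference of 1.00 for Cbx2 appears both ways from the same 4 libraries.

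For the day, Rnf2 was at -0.38 in shControl (-0.46 to -0.29) and 0.27 in shNFIB (0.19 to 0.34), a difference of 0.65. Cbx2 was at -0.62 in shControl (-0.77 to -0.48), -0.32 in shNFIB (-0.46 to -0.19) and 0.38 in shMLL1 (0.23 to 0.53), so that shMLL1 differed by 1.00 from shControl and by 0.71 from shNFIB.

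For shNFIB against shControl, Ezh1 was at 0.29 at day 0 (0.20 to 0.38) and -0.25 at day 7 (-0.31 to -0.20), a difference of -0.54. Ezh2 was at 0.55 (0.46 to 0.64) and -0.22 (-0.38 to -0.05), a difference of -0.76. Cbx7 was at 0.63 (0.44 to 0.83) and -0.31 (-0.47 to -0.16), a difference of -0.95.

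For shMLL1 against shControl, Ezh1 was at -0.64 at day 0 (-0.75 to -0.53) and 0.49 at day 7 (0.44 to 0.54), a difference of 1.13. Jarid2 was at -0.62 (-0.83 to -0.41) and 0.20 (0.01 to 0.40), a difference of 0.82. Rnf2 was at -0.18 (-0.26 to -0.09) and 0.11 (0.02 to 0.21), a difference of 0.29. Cbx2 was at -0.40 (-0.55 to -0.26) and 0.60 (0.44 to 0.75), a difference of 1.00.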

How the results depend on the processing

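Ezh1, Ezh2 and Suz12 passed the day test with the same sign under all 9 alternatives, each line left out included, with log2 differences of 1.57 to 2.42, -1.79 to -1.39 and -1.39 to -1.17. The number of subunit genes called lower stayed 2. The number called higher went from 1 to 2, by the addition of Cbx7, under library size alone (adjusted p = 0.0370), DESeq2 (0.0365), no filter (0.0265) and protein-coding genes alone (0.0416), and was 1 to 2 with a line left out, 2 without shNFIB (0.0178), where edgeR was used unless named, all with Benjamini-Hochberg adjustment; over its 9 alternatives the adjusted p of Cbx7 ran from 0.0178 to 0.281. The cause was not tested. No subunit gene was called in a knockdown line under its 6 alternatives. The next counts cover the subunit genes, the hairpin targets and the named genes of the related Polycomb lists, not the marker genes. No called difference of these genes turned its sign. They lost a call in 24 cases, 9 of them without shControl, and of 12 gained calls 5 were those of Cbx7.

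Counts over all genes moved more. With any line left out, fewer libraries were fitted, and 1213 to 2599 genes were called higher and 1197 to 2542 lower at day 7. The lowest of both came without shControl. With no replicate block 1850 genes were called lower. In shNFIB, 19 genes were called higher and 51 lower, against 299 and 315 by DESeq2, 341 and 347 with no filter, 8 and 14 with protein-coding genes alone, and 291 and 302 with only the 4 libraries compared. In shMLL1, 2 were higher and 3 lower, against 171 and 239 by DESeq2, 236 and 290 with no filter, and 90 and 109 with only the 4 libraries. The cause was not tested.

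For pairs of libraries, library size alone moved the median of all genes to 0.27 in shMLL1 at day 7 against day 0 and to -0.10 in shNFIB against shControl at day 7. Relative to that shift the ratios were as before, but the sign of Rnf2 and Cbx8 in shMLL1 turned, to 0.19 and 0.23. In all, 12 pair ratios turned sign under either scaling, none of them over 0.09 in size before, and over all alternatives 17 values of fitted differences did, 8 of them under library size alone and none of them called. Under library size alone Cbx7 brought the number past 2-fold upwards at day 7 in shMLL1 from 1 to 2. At 1.5-fold that number was 3 (32.8% of all genes), and 3 were lower there (31.3%) as in shControl (26.9%), from 2 at 2-fold. The knockdown lines, with 0 at 2-fold, had 1 gene higher in shNFIB at day 0 (13.9%), 2 at day 7 (17.9%), 1 higher (20.8%) and 2 lower (16.7%) in shMLL1 at day 0, and 1 higher at day 7 (14.9%). The smallest library, shMLL1 at day 7, held at least 369 counts of each subunit gene. The lowest count of a subunit gene in any library was 312, that of Jarid2 in shMLL1 at day 0. The spread between cultures was not measured.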
